A study of Bos taurus with 12 samples.

Results

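The 43 genes described here code for the contractile apparatus of smooth muscle and for the dense bodies, the counterpart in smooth muscle of the Z-disc. They are 43 of the 26323 transcripts measured on a bovine array, and they were chosen by values of these arrays, the higher levels of smooth muscle genes in old than in young animals, so that the difference between old and young animals is given for them as a description and without a test. For 42 genes the symbol came from the annotation of the array. ACTG2, which that annotation calls an actin beta transcript, was named from the table of the study, and 10 of the 10 named genes nearest to it on the array also lie beside ACTG2 in RefSeq. From general knowledge the genes were divided into 22 that are largely restricted to muscle, 12 that are enriched in muscle and 9 that are widely expressed, with the question whether all 3 classes move together over the animals.

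Endometrium was collected by biopsy on Day 15 of a synchronised cycle, between the caruncles and in the horn on the side of the corpus luteum, and the RNA of each animal was hybridised in 1 colour to its own 60-base oligonucleotide array. The old females (OF, n = 4, animals 0233, 0234, 0245 and 2258) were nulliparous Holsteins of 13 to 14 years, and the young females (YF, n = 4, animals 1069, 1070, 1072 and 1127) were primiparous Holsteins of 4 to 5 years biopsied over a year after calving. Both groups were somatic clones of a single donor cow, so that 1 genotype was sampled. As all OF were nulliparous and all YF primiparous, age and parity cannot be told apart between these groups. The contemporary cows (CP, n = 3, animals 1068, 1128 and 1129) were measured on the same day of the cycle. A 4th contemporary cow, animal 1111, was left out by the authors for a divergent phenotype and is shown apart. The labels give no age, parity or clone status for the contemporary cows.

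In smooth muscle, contraction starts when calcium activates myosin light chain kinase, which phosphorylates the regulatory light chain of myosin and lets the motor pull on actin filaments. The filaments are anchored in dense bodies and in plaques at the membrane and are held together by desmin. In the uterus these cells make up the myometrium under the endometrium and the walls of the vessels within it.

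Each level below is the log2 of the processed intensity minus the 75th percentile of the same array, so that 0 is that percentile and 1 is a doubling of intensity. Levels of different genes come from different probes and are not set against each other. On each array 71.6% to 74.9% of the probes were well above background and 0 spots were saturated. MYH11, CNN1, DES, ACTG2, LMOD1 and SMTN, the genes used to mark smooth muscle, were well above background on 12 of 12 arrays, in young as in old animals.

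The probes behind 8 of the genes are shown so that it can be read what was measured for the actins, for the myosin motor, and for restricted and widely expressed proteins of the same apparatus. For each gene 1 of its probes is printed, and for MYH11 both. The ACTA2 probe belongs to another transcript than the one behind the ACTA2 levels given further on, which come from chr26:10662362-10714982. The annotation does not give which part of the transcript a probe covers. Coordinates are those of the transcript in the assembly UMD3.1. The capitals in the probes of ACTG2 (chr11:10717554-10732398) and of a transcript of ACTA2 (chr26:10662420-10679648) mark 8 bases at which the former ends and the latter begins. The MYH11 probes (chr25:14218281-14343745) are shifted by 1 base, and the capitals mark the 59 bases they share, so that they count as 1 measurement rather than as repeats. In the TLN1 probe (chr8:60281244-60312068) the capitals mark a termination codon at its end. The other genes lie at chr16:49624532-49651879 (LMOD1), chr17:72053880-72064312 (SMTN), chrX:40310757-40332714 (FLNA) and chr7:45159981-45162941 (CNN2).
ACTG2: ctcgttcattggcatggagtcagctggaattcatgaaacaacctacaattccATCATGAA
ACTA2: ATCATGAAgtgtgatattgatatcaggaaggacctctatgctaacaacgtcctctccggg
MYH11, first probe: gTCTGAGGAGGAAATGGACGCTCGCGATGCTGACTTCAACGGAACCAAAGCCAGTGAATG
MYH11, second probe: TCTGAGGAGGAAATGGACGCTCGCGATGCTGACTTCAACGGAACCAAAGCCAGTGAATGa
LMOD1: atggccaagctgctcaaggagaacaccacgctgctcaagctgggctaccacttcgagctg
SMTN: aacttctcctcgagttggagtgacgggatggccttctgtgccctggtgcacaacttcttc
FLNA: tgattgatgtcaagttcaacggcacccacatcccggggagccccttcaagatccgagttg
TLN1: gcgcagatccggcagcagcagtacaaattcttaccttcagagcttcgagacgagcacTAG
CNN2: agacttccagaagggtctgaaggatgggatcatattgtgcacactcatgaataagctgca
The difference between the means of OF and YF was 3.38 for the ACTG2 probe and 2.17 for the ACTA2 probe. It was 2.78 and 2.83 for the MYH11 probes, 1.65 for LMOD1, 1.67 for SMTN, 1.59 for FLNA, 0.75 for TLN1 and 0.92 for CNN2. In all, 31 of the 43 genes had at least 2 different probes that were above background on every array. For 0 of the 31 did these probes lie over 0.5 apart in OF minus YF. Over all 43 genes, probes of 16 shared 30 bases or more, identical copies of a probe included.

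Contractile genes were high in 2 of the 4 old females. Animal 2258 lay above every YF in 41 of the 43 genes and animal 0234 in 36, against 8 for animal 0245 and 3 for animal 0233. Animal 0233 lay below every YF in 13 of the 43 genes, 7 of them restricted, animal 0245 in 5, animal 0234 in 1 and animal 2258 in 0. Animal 2258 was the highest and animal 0234 the second highest of the 11 animals in 33 of the 43 genes. Among the contemporary cows the genes above every YF were 7 in animal 1068, 6 in animal 1128, 3 in animal 1129 and 7 in the animal left out, and those below every YF were 2, 7, 2 and 3. The share of all transcripts above or below every YF was not computed for single animals. These counts therefore describe the animals and are not set against the rest of the array. The SD between animals was larger in OF than in YF for 41 of 43 genes, with a median SD of 1.66 in OF, 0.50 in YF and 0.35 in CP. The choice of genes by their levels in OF bears on this count, and its share over all transcripts was not computed. Since the samples are pieces of tissue, more smooth muscle cells in a biopsy and more RNA of these genes per cell cannot be told apart.

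**Figure D1:**
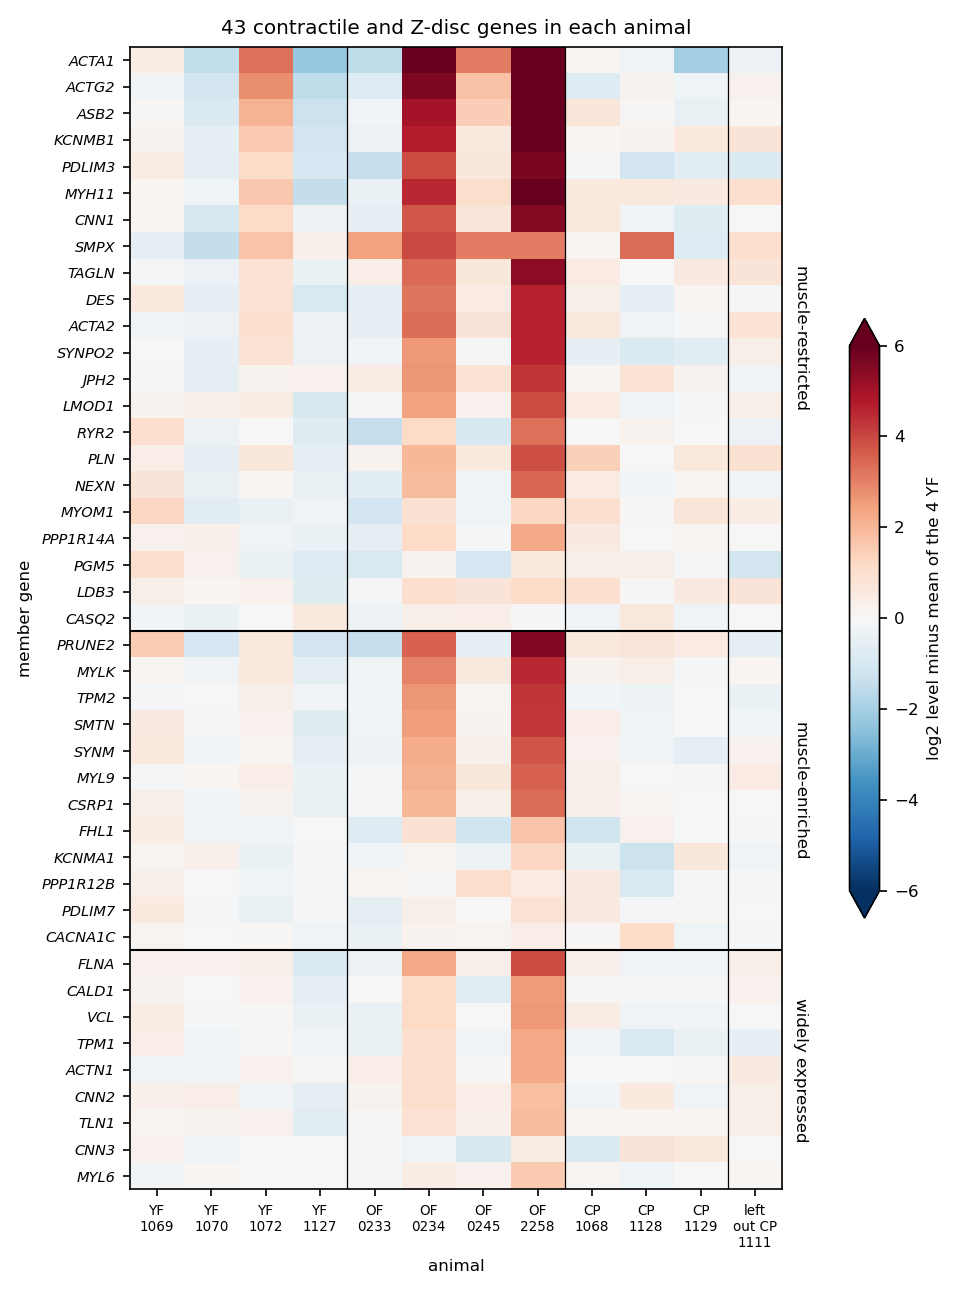
Log2 level of each of the 43 genes (rows) in each of the 12 animals (columns), minus the mean of the 4 YF. Rows are sorted by class, and within a class by falling SD over the 11 animals in use. The colour saturates beyond 6 in either direction. The columns of OF 2258 and OF 0234 are red over most rows, and those of OF 0233 and OF 0245 are pale over most rows, with more blue in OF 0233.

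Among the 12 thin filament genes, 11 had a higher mean in OF than in YF and 8 differed by over 1, with a median difference of 1.70. ACTG2 codes for the gamma actin of smooth muscle. Its level was -0.38, -1.30, 2.57 and -1.72 in YF 1069, 1070, 1072 and 1127, -0.997, 5.39, 1.53 and 7.06 in OF 0233, 0234, 0245 and 2258, and -0.97, -0.02 and -0.46 in CP 1068, 1128 and 1129. OF 2258 and OF 0234 stood above all others, YF 1072 came next, and OF 0233 lay inside the range of the YF. The difference of the means was 3.45 ± 1.75 (SE, n = 4 and 4) between OF and YF and -0.27 ± 0.95 (SE, n = 3 and 4) between CP and YF, and values after ± are SE from limma throughout.

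CNN1, the calponin of smooth muscle that binds actin and slows the myosin ATPase, has widely expressed relatives in CNN2 and CNN3. In the same order of animals as above, CNN1 was at 2.85, 1.74, 3.85 and 2.42 in YF, at 2.21, 6.43, 3.43 and 8.24 in OF, and at 3.37, 2.45 and 2.01 in CP. CNN3 was at 0.72, 0.27, 0.48 and 0.48 in YF, at 0.43, 0.25, -0.46 and 0.91 in OF, and at -0.33, 1.25 and 1.11 in CP. The restricted calponin was thus highest in OF 2258 and OF 0234, whereas the groups overlapped throughout in CNN3, whose highest animals were CP 1128 and CP 1129. OF minus YF was 2.36 ± 1.23 for CNN1, 0.86 ± 0.38 for CNN2 and -0.21 ± 0.27 for CNN3.

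TAGLN codes for transgelin, an actin-binding protein of smooth muscle. It was at 1.18, 0.91, 2.17 and 0.86 in YF, at 1.68, 4.66, 1.95 and 6.64 in OF, and at 1.78, 1.29 and 1.83 in CP. All OF lay above 3 of the YF, and 2 OF lay above YF 1072. ACTA1, the alpha actin of skeletal muscle, was well above background in YF 1069 and 1072 and in OF 0234, 0245 and 2258, and in none of the CP. Its level was -6.29, -8.20, -3.43 and -8.97 in YF, -8.26, -0.50, -3.65 and 1.47 in OF, and -6.60, -6.94 and -8.78 in CP. Since it was not well above background in any CP, its mean in OF (-2.73) was at least 14.8-fold higher than in CP (-7.44). This bound sets the mean of all 4 OF, 3 of them measured, against the lowest signals well above background on the CP arrays, and it is lost with another background correction (normexp), where OF minus CP was 2.74 on the log2 scale. In the other thin filament genes OF minus YF was 2.08 ± 1.03 for ACTA2, the alpha actin of smooth muscle, 1.73 ± 0.92 for the tropomyosin TPM2, 1.68 ± 0.92 for SMTN (smoothelin) and 1.61 ± 0.85 for LMOD1, which nucleates actin filaments. It was smaller in CALD1 (caldesmon, 0.77 ± 0.63) and the tropomyosin TPM1 (0.65 ± 0.56), both widely expressed, and OF 2258 and OF 0234 were the 2 highest animals in all 6.

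The 6 genes of the myosin filament and its control all had a higher mean in OF than in YF, with a median difference of 1.12. MYH11, the heavy chain of smooth muscle myosin, was at 0.61, 0.22, 2.13 and -0.95 in YF, at 0.12, 5.02, 1.56 and 6.52 in OF, and at 1.07, 1.13 and 1.05 in CP. MYLK, the kinase of the regulatory light chain, was at -2.42, -2.75, -1.92 and -3.10 in YF, at -2.81, 0.43, -1.97 and 1.996 in OF, and at -2.35, -2.19 and -2.61 in CP. In either gene OF 2258 and OF 0234 were the only OF above the YF, and the 3 CP lay within the range of the YF. MYL6, the essential light chain that many other cells use as well, was at 6.18, 6.48, 6.35 and 6.37 in YF, at 6.29, 6.81, 6.60 and 7.89 in OF, and at 6.51, 6.09 and 6.33 in CP. The 2 highest animals were those of MYH11, over a narrower range. OF minus YF was 2.80 ± 1.37 for MYH11, 1.96 ± 0.96 for MYLK and 0.56 ± 0.32 for MYL6.

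MYL9, the regulatory light chain that MYLK phosphorylates, has 2 transcripts under its name on the array. The transcript at chr13:66306260-66314230 has the neighbours of MYL9 in RefSeq (10 of 10) and differed by 1.56 between OF and YF, and the brighter transcript at chr24:37820258-37829300 has 0 of 10 of these neighbours and differed by 0.13. The former was used, a choice made after the values were seen. The phosphatase that reverses the phosphorylation is set by PPP1R12B, its myosin-targeting subunit (0.44 ± 0.24), and PPP1R14A, its inhibitor (0.69 ± 0.58). PPP1R14A was highest in OF 2258 and OF 0234, and PPP1R12B in OF 0245 and CP 1068. The 2 probes of PPP1R12B disagreed, however. The probe above background on 12 arrays differed by 0.07 and was highest in YF 1072. The probe above background on 2 arrays differed by 0.82 and was highest in OF 0245. Another transcript of PPP1R12B, above background on 2 arrays, differed by 1.60.

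Of the 14 genes of dense bodies, Z-discs and adhesion plaques, 13 had a higher mean in OF than in YF and 6 differed by over 1, with a median difference of 0.89. FLNA, the filamin that crosslinks actin in most cells, was at 0.65, 0.66, 0.71 and -0.40 in YF, at 0.07, 2.72, 0.77 and 4.33 in OF, and at 0.71, 0.21 and 0.13 in CP. It was the only widely expressed gene with a difference over 1 (1.57 ± 0.85). PDLIM3, an actinin-binding PDZ and LIM protein of muscle, was at -0.13, -1.14, 0.50 and -1.59 in YF, at -1.996, 3.31, 0.07 and 5.04 in OF, and at -0.66, -1.76 and -1.20 in CP. OF 0233 was the lowest of the 11 animals in PDLIM3 and OF 2258 the highest, so that the old females spanned the whole range.

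SYNPO2, an actin-bundling partner of filamin and actinin, was at -4.08, -4.57, -3.21 and -4.40 in YF, at -4.22, -1.44, -4.14 and 0.53 in OF, and at -4.55, -4.94 and -4.71 in CP. All 3 CP lay below every OF, and CP 1128 and CP 1129 also below every YF. PDLIM7 depended on the transcript. The brightest one differed by 0.16 between OF and YF, with levels of 1.23, 0.54, 0.21 and 0.56 in YF, 0.08, 0.97, 0.62 and 1.51 in OF, and 1.15, 0.50 and 0.72 in CP. The other transcripts of PDLIM7 differed by 1.30 and 1.29, and the mean over all 3 by 0.92.

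SMPX, a small protein of striated muscle fibres, departed from the pattern of the others. It was at -6.71, -7.56, -4.45 and -5.86 in YF, at -3.73, -2.18, -3.06 and -3.09 in OF, and at -6.003, -2.79 and -6.90 in CP. All 4 OF lay above all 4 YF, CP 1128 lay among the OF, and OF 0234 rather than OF 2258 was the highest animal. SMPX was near the detection limit, being well above background in 2 of 4 YF and 2 of 3 CP against 4 of 4 OF, and its difference of 3.13 ± 0.63 was 1.38 with another background correction (normexp). PGM5, an adhesion protein related to phosphoglucomutase, was the gene with the lowest OF minus YF (-0.29 ± 0.48). The LIM protein CSRP1 differed by 1.40 ± 0.70 and the actin-binding NEXN by 1.09 ± 0.86. The adhesion and crosslinking proteins ACTN1, VCL (vinculin) and TLN1 (talin) differed by 0.94 ± 0.44, 0.84 ± 0.60 and 0.79 ± 0.40, and in these 5 genes the 2 highest animals were again OF 2258 and OF 0234. LDB3, a Z-disc protein that binds actinin, the LIM protein FHL1 and the M-band protein MYOM1 differed by 0.70 ± 0.33, 0.17 ± 0.61 and 0.19 ± 0.59. The probes of LDB3 disagreed. The probe above background on 12 arrays differed by 0.26. The probe above background on 7 arrays differed by 1.13 and was highest in CP 1068.

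DES codes for desmin, the intermediate filament of muscle. It was at 2.53, 1.35, 2.80 and 1.03 in YF, at 1.38, 5.12, 2.42 and 6.53 in OF, and at 2.27, 1.40 and 2.10 in CP. SYNM, whose product synemin copolymerises with desmin, was at -6.69, -7.45, -7.18 and -7.81 in YF, at -7.60, -5.05, -6.99 and -3.53 in OF, and at -7.04, -7.50 and -7.80 in CP. OF 2258 and OF 0234 were again highest in either gene, and SYNM was well above background in these 2 OF, in YF 1069 and in CP 1068.

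The 7 genes of calcium handling and membrane excitability all had a higher mean in OF than in YF, and 3 of them differed by over 1 (KCNMB1, JPH2 and PLN). KCNMB1 is the regulatory subunit that tunes the large-conductance potassium channel of smooth muscle to calcium. It was at -2.92, -3.72, -1.56 and -4.25 in YF, at -3.45, 1.60, -2.52 and 3.49 in OF, and at -3.002, -2.88 and -2.47 in CP. Its OF minus YF of 2.89 ± 1.49 stood beside 0.24 ± 0.34 for KCNMA1, the pore of the same channel, and 0.08 ± 0.20 for CACNA1C, the L-type calcium channel. CACNA1C lay near the detection limit, with means of -7.04 in YF and -6.96 in OF. Of its 2 probes, 1 was above background on 0 of 12 arrays. Another transcript of CACNA1C, above background on 1 array, differed by 0.58. JPH2, which ties the sarcoplasmic reticulum to the cell membrane, was at -7.40, -8.03, -7.25 and -7.22 in YF, at -7.03, -4.82, -6.66 and -3.18 in OF, and at -7.34, -6.66 and -7.25 in CP. Only OF 0234 and 2258 among the OF and 0 YF were well above background in JPH2, so that its mean over all 4 OF (-5.42) was at least 2.20-fold higher than in YF (-7.47) at this processing. The bound does not hold across background corrections, since OF minus YF was 0.66 on the log2 scale with normexp. CASQ2, a calcium store protein of cardiac muscle, lay near the detection limit at -7.48, -7.68, -7.31 and -6.72 in YF, -7.59, -6.94, -6.90 and -7.39 in OF, and -7.50, -6.66 and -7.57 in CP, with no group apart. RYR2, the calcium release channel of the reticulum, was well above background on 5 of 12 arrays and differed by 0.54 ± 0.96, and its probes disagreed (-0.26 and 1.35).

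The remaining genes are ASB2, the subunit of a ubiquitin ligase that targets filamins, and PRUNE2. ASB2 was at -3.16, -4.14, -1.16 and -4.54 in YF, at -3.39, 1.74, -1.78 and 3.59 in OF, and at -2.52, -3.20 and -3.68 in CP. PRUNE2 was at -0.75, -3.31, -1.66 and -3.42 in YF, at -3.65, 1.27, -2.85 and 3.25 in OF, and at -1.64, -1.58 and -1.79 in CP. OF 0233 was the lowest of the 11 animals in PRUNE2, and OF 0234 and OF 2258 were above all others in both.

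**Figure D2:**
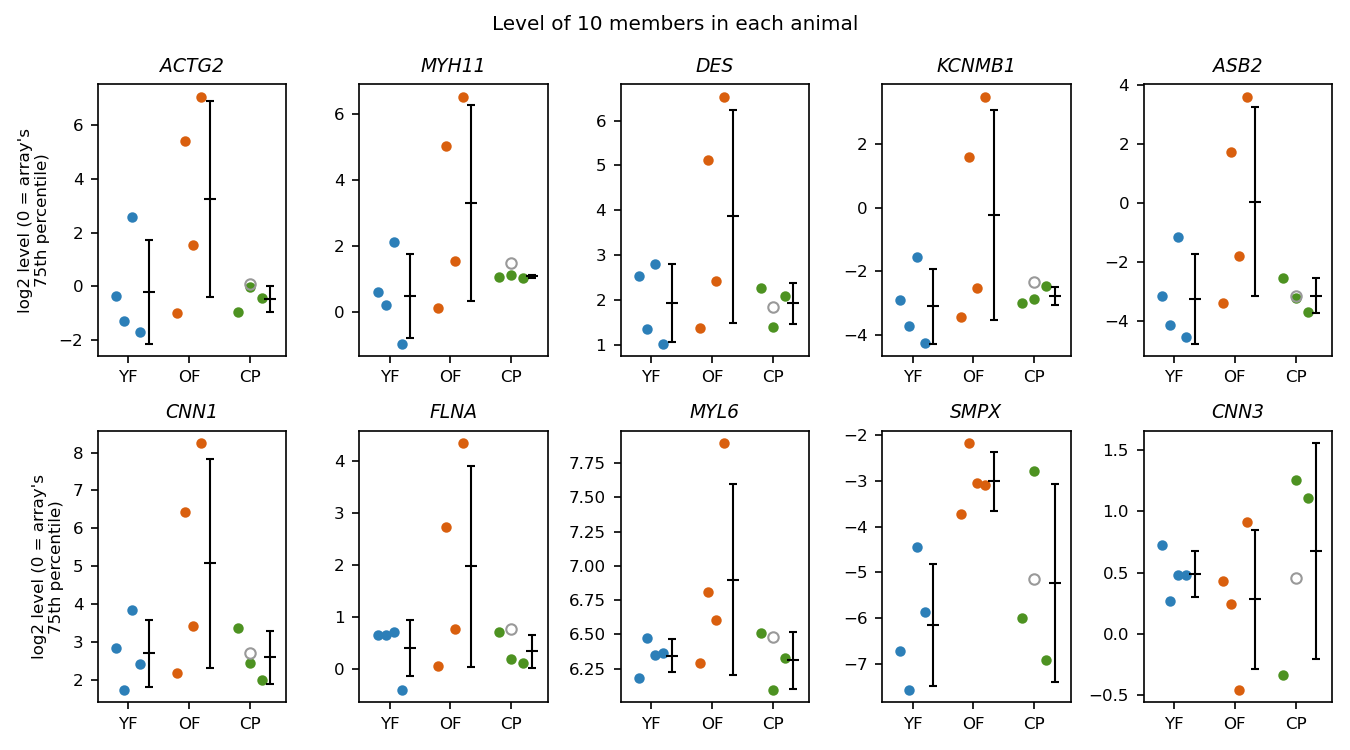
Log2 level of 10 of the genes in each animal (y axes differ between panels, and 0 is the 75th percentile of the array). Filled points are animals, the open point is the contemporary cow left out, and bars are the mean ± SD of 4 YF, 4 OF and 3 CP. In 8 of the panels the upper OF points are animals 2258 and 0234, whereas SMPX has all OF above all YF and CNN3 has overlapping groups.

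All 3 classes were high in the same animals, the restricted genes by the most and the widely expressed genes by the least. The median over the 22 restricted genes, minus the mean of the YF, was 4.44 in OF 2258 and 2.92 in OF 0234. The other old females lay at 0.62 (animal 0245) and -0.43 (animal 0233), against -0.62 to 0.86 in the YF and -0.03 to 0.41 in the CP. Over the 12 enriched genes it was 3.44 in OF 2258 and 2.07 in OF 0234, and over the 9 widely expressed genes 2.29 and 1.01, while the 9 other animals in use lay between -0.39 and 0.23 in the widely expressed genes. The contemporary cow left out was at 0.19, -0.06 and 0.28 in the 3 classes.

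The median difference between OF and YF was 1.99 for the restricted, 1.45 for the enriched and 0.79 for the widely expressed genes, beside 0.01 over all transcripts tested. Without animal 2258 these medians were 1.05, 0.64 and 0.25, and without animal 0233 they were 2.68, 1.996 and 1.02. The arrays lay on 2 slides. On slide 2, with 3 OF and 2 YF, the medians were 2.55, 1.83 and 1.14. On slide 1, with 1 OF (animal 0245) and 2 YF, they were 0.40, 0.18 and -0.01, so that the difference was nearly absent on the slide that carried neither animal 2258 nor animal 0234.

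**Figure D3:**
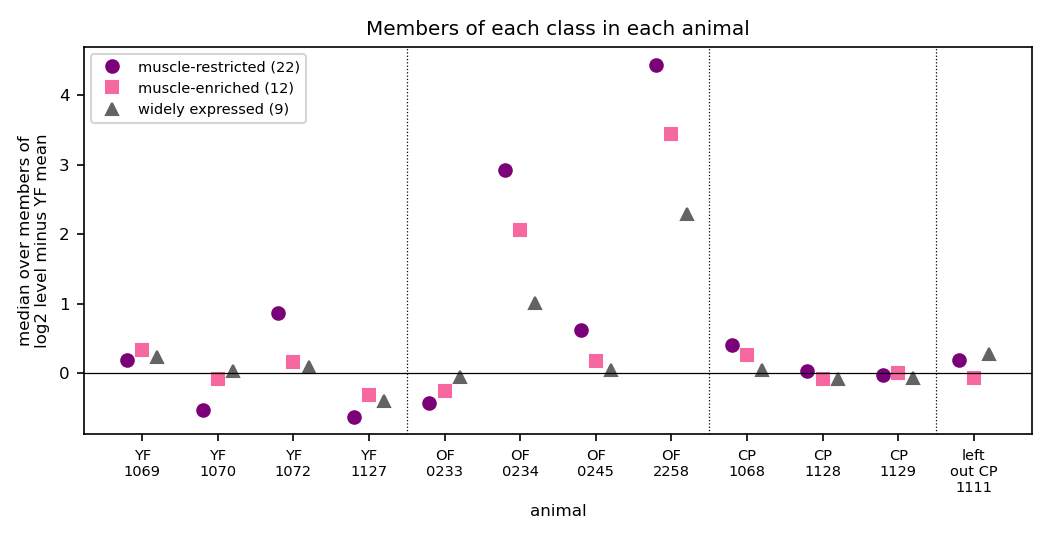
Median over the genes of a class of the log2 level minus the YF mean, for each animal on the x axis. Points are 22 restricted, 12 enriched and 9 widely expressed genes. OF 2258 (4.44, 3.44 and 2.29) and OF 0234 (2.92, 2.07 and 1.01) lie above the other animals in all 3 classes, with the restricted genes uppermost.

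Of the 43 genes, 41 had a higher mean in OF than in YF, 24 of them by over 1, and the lower ones were CNN3 and PGM5. In this contrast limma called 0 of 19755 transcripts at an adjusted p of 0.05 (0%), with 478 at an unadjusted p under 0.05. The fold change rank ordering statistics named by the study (FCROS), which rank the pairwise ratios between animals, called 24 of the 43 genes higher and 0 lower, where 2.88% of all transcripts were called higher and 2.06% lower. Of the 38 genes that passed the filter on dim probes, 1 (SMPX) had all OF above all YF and 0 had all OF below, beside 0.931% and 0.597% of all transcripts tested. JPH2, which did not pass, also had all OF above all YF, and without animal 0233 the count among the genes that passed was 6 of 39, all with OF above YF, beside 3.96% of all transcripts tested in that setting. ACTA1, SYNM, RYR2, CASQ2 and JPH2 did not pass. As this contrast chose the genes, nothing is read from these counts.

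The contemporary cows played no part in the choice of genes, and their comparison with YF is the one that was tested. The YF arrays did take part in that choice, so that the tests are not independent of it. None of the 37 genes that passed the filter in CP or YF was called by limma (0% of the 19993 transcripts tested were called), and the adjusted p was 1 for every one of them. The count at an unadjusted p under 0.05 was 0 of 37, beside 606 of all transcripts tested. The differences of CP minus YF ran from -0.67 (SYNPO2) to 0.69 (PLN), and the median was 0.13 for the restricted, 0.07 for the enriched and 0.02 for the widely expressed genes, beside -0.02 over all transcripts tested. The smallest exact two-sided permutation p over these 37 was 0.143, for SYNPO2, where 3 against 4 animals allow no value below 0.0286. All 3 CP arrays lay on slide 2, whereas the YF were split over both slides. Within slide 2 (3 CP, 2 YF) the class medians were 0.25, 0.07 and 0.08, and CP minus YF was 0.57 for ACTG2, whose sign thus turned, and 1.25 rather than 0.58 for MYH11. In 9 of the genes given by animal the sign of CP minus YF turned under at least 1 other processing, and in 14 with an animal left out.

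These tests leave room for sizeable differences. The 95% interval of CP minus YF in limma was -1.42 to 0.09 for SYNPO2, -0.32 to 1.70 for PLN, -0.85 to 2.01 for MYH11, -1.09 to 1.08 for DES and -2.47 to 1.92 for ACTG2. It was narrower for the widely expressed MYL6 (-0.42 to 0.35) and FLNA (-0.78 to 0.66). FCROS called 1 gene higher, PLN, the phospholamban that restrains the calcium pump of the reticulum, and 0 lower, where 1.94% and 2.29% of all transcripts were called. Of the genes that passed, 0 had all CP above or all CP below all YF, beside 1.51% and 2.32% of all transcripts. Without YF 1072, 3 of 37 had all CP above all YF and 0 below, beside 2.38% and 3.31% of all transcripts in that setting. Without CP 1068, 1 of 37 lay above and 2 below, beside 4.71% and 8.48%.

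**Figure D4:**
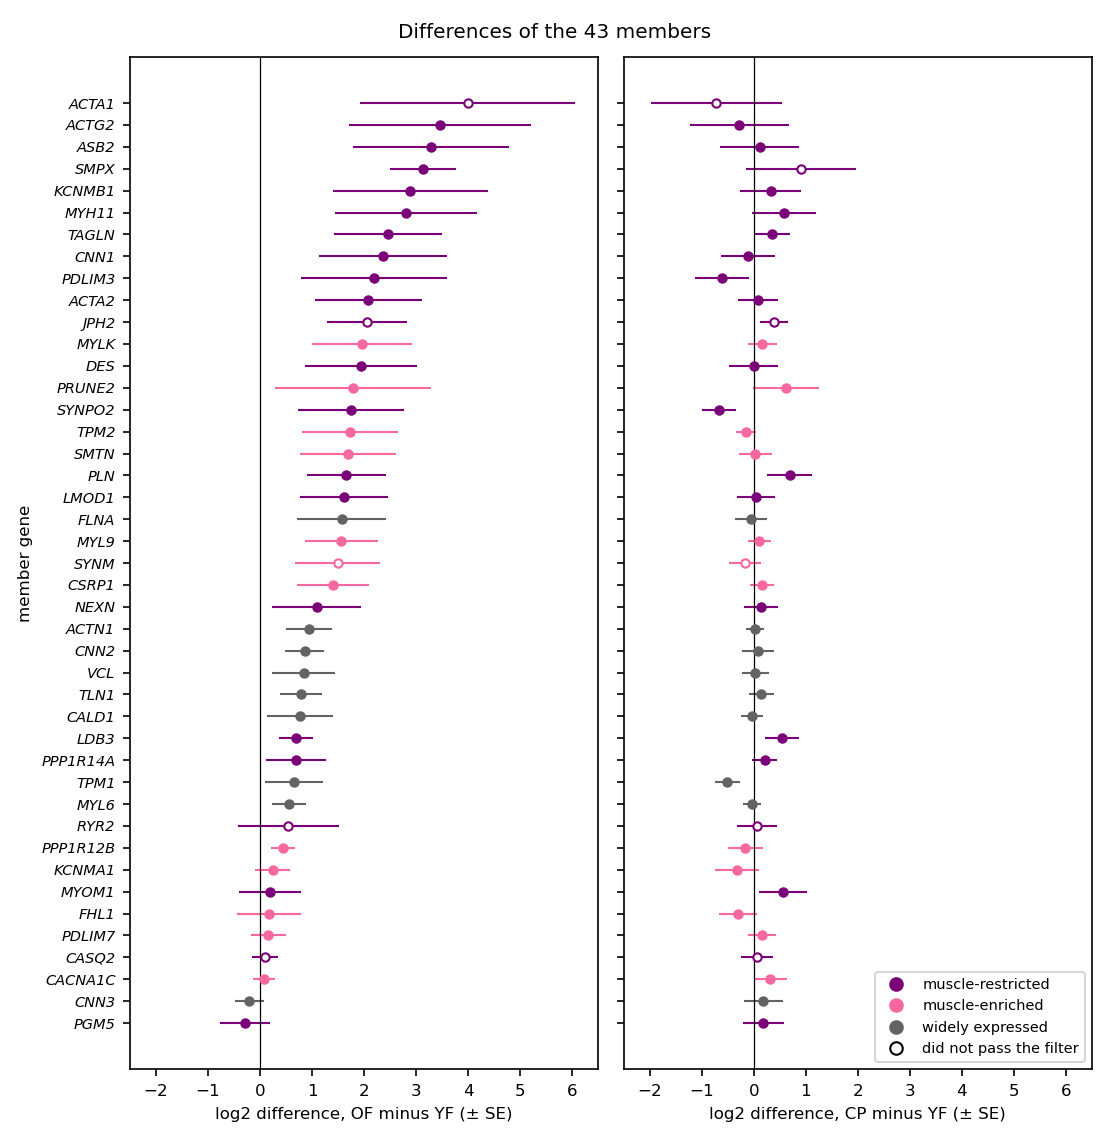
Difference of group means on the log2 scale (x axis) for each of the 43 genes (y axis), OF minus YF on the left and CP minus YF on the right, with bars of 1 SE from limma. Open points did not pass the filter on dim probes. Most points lie right of 0 on the left, up to 3.99 for ACTA1, and around 0 on the right.

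Between OF and CP, which use the same OF arrays as the contrast above, 39 of 43 genes had a higher mean in OF. The median difference was 1.97 for the restricted, 1.21 for the enriched and 0.80 for the widely expressed genes, beside 0.04 over all transcripts tested. Limma called 0 of 19914 transcripts (0%), with 911 at an unadjusted p under 0.05, and FCROS called 12 of the genes higher and 0 lower, where 2.16% and 3.24% of all transcripts were called. Of the genes that passed, 1 (SYNPO2) had all OF above all CP and 0 had all OF below, beside 2.93% and 2.86%. Without OF 0233 it was 18 of 39, all with OF above CP, beside 6.41% of all transcripts tested with that animal left out. Without OF 0234, 0245 or 2258 it was 1, 2 and 1 of 38, beside 3.85%, 6.63% and 5.32%. The OF arrays took part in the choice of genes, so that nothing is read from the counts in this contrast. Without OF 2258 the medians were 1.09, 0.59 and 0.27.

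How closely each gene followed the others over the 11 animals was measured by the Pearson correlation with the mean profile of the restricted genes, which ran from -1.37 in YF 1127 to 3.48 in OF 2258. The correlation had a median of 0.95 for the restricted, 0.95 for the enriched and 0.91 for the widely expressed genes, but OF 2258 and OF 0234 stand apart and carry much of it. Over the 9 other animals the medians were 0.66, 0.63 and 0.21, with 0.95 for ASB2, 0.95 for MYLK and 0.90 for MYH11 and -0.26 for CNN3. Each restricted gene was left out of the profile that it was compared with, and the values are descriptions of these animals.

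Of the genes outside the 43, 922 varied with an SD of at least 1 over the 11 animals and were ranked by the same correlation, and 28 of them exceeded 0.95 and 52 were under -0.8. The 15 most alike were IL17B, DMPK, KCNG1, C1QL3, FBXL22, TSPAN2, CLGN, CHRDL2, COL12A1, MYL4, MGC151586, MASP1, PNCK, ADRB3 and BAG2. IL17B, a cytokine of the interleukin 17 family, came first (0.98, and 0.80 over the 9 other animals), at -3.32, -3.75, -2.91 and -4.37 in YF, at -4.16, 0.47, -2.83 and 1.51 in OF, and at -3.76, -3.07 and -4.39 in CP. DMPK, the myotonic dystrophy kinase, followed with 0.98 and 0.77, and MYL4, an essential light chain of atrial and embryonic muscle, had 0.97 and 0.78. MYL4 lay below the lowest signal well above background in YF 1069, 1070 and 1127, OF 0233 and CP 1068, 1128 and 1129. Its value over the 9 other animals thus rests largely on levels near the detection limit. MASP1, a protease of the lectin pathway of complement, kept the highest value of the 15 over the 9 other animals (0.93). At the other end LRP1B, GUCY1A2, TACR3, LRRC71 and FADS6 lay lowest in OF 2258, and LRP1B, a receptor of the LDL receptor family, had a correlation of -0.89 that was -0.31 over the 9 other animals.

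A further list of 57 genes of contraction that are not among the 43 held 54 on the array, 53 of them above background in a group of animals compared. Over the 54 the median OF minus YF was 0.55, and OF 2258 was the highest animal in 40. The mean was higher in OF than in YF for 42 of the 53 and lower for 11. Limma called 0 of them in the comparison of OF with YF, of CP with YF and of OF with CP. FCROS called 17 of the 54 higher and 2 lower in OF than in YF, beside 2.88% and 2.06% of all transcripts, and 0 of the 53 had all OF above or below all YF, beside 0.931% and 0.597%. The median CP minus YF was 0.05, and 2 of the 53 genes had all CP below all YF, beside 2.32% of all transcripts tested.

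MYOCD, the coactivator of serum response factor that drives smooth muscle genes, was at -7.41, -8.15, -6.64 and -7.66 in YF, at -6.51, -3.94, -6.91 and -2.31 in OF, and at -7.24, -7.79 and -8.50 in CP. It was well above background on 4 of 12 arrays, so that most of these values lie at the background, and no difference is given for it. TES, a LIM protein of focal adhesions, differed by 1.57 ± 0.88, HSPB8, a small heat shock protein, by 1.53 ± 0.61, ATP2B4, a calcium pump of the cell membrane, by 1.44 ± 0.70, and SLMAP, a sarcolemma-associated protein, by 1.32 ± 0.66. Among the low differences were those of MYPN, a partner of actinin and nebulin (-0.90 ± 0.36), SGCD, a sarcoglycan (-0.31 ± 0.52), TPM3, a tropomyosin (-0.19 ± 0.18), and ITPR1, a calcium release channel (-0.12 ± 0.66). The adjusted p of limma was 0.999 for each of these 8 between OF and YF.

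Markers of other cell types were read in the same animals. Of 17 epithelial genes on the array, all above background, the median minus the YF mean was -2.06 in OF 2258 and -0.26 in OF 0234, against 0.49 in OF 0233, 0.71 in OF 0245, -1.35 to 0.59 in the YF and -0.30 to 0.29 in the CP. The animal with the highest contractile genes was thus also the one with the lowest epithelial genes, while YF 1069, the next lowest in epithelial genes, had restricted contractile genes at 0.19. The part of this in the contractile levels was not tested. The stromal list (17 genes) was at 0.49 in OF 2258, -0.01 in OF 0234 and -0.40 to 0.67 in the YF, the endothelial list (14 genes) at -0.01, 0.07 and -0.52 to 0.32, and the pericyte list (9 genes above background) at 0.36, -0.33 and -0.84 to 0.67. OF 2258 and OF 0234 thus lay within the range of the YF in these 3 lists, and the same held for the lymphatic list (4 genes).

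Of 27 genes of skeletal and cardiac muscle on the array, 9 were well above background on 0 of 12 arrays, and these were MYH1, MYH2, MYL2, TNNC2, CKM, TTN, NEB, MYBPC1 and NPPA. Over the 15 that were above background the median was 0.67 in OF 2258 and 0.21 in OF 0234, against -0.30 to 0.20 in the YF. The leukocyte list (13 genes above background) was at -0.32 in OF 2258, below the YF (-0.25 to 0.26), and at -0.10 in OF 0234.

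**Figure D5:**
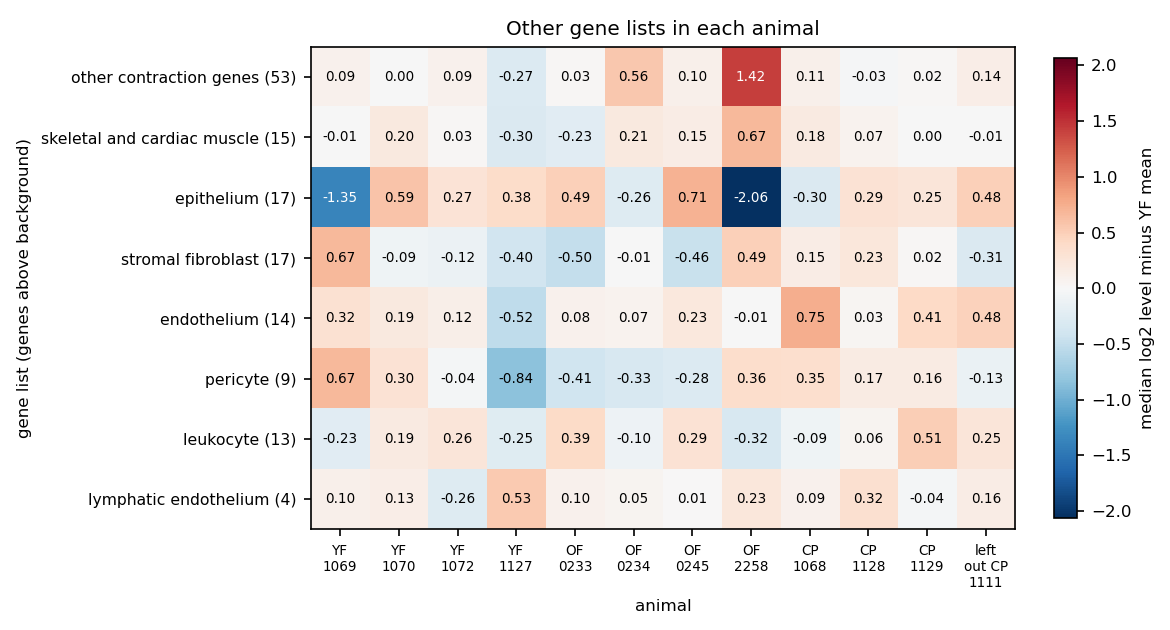
Median over the genes of each list (rows, number of genes above background in brackets) of the log2 level minus the YF mean, in each animal (columns). OF 2258 has the highest value in the other contraction genes (1.42) and the lowest in the epithelial genes (-2.06), and OF 0234 the second highest in the former (0.56).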

How the data were processed

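The authors deposited, for each of 12 Agilent arrays, the output of Feature Extraction 10.7.3.1 (version per the labels), whose processed intensity had its background removed by that program, with no normalization across arrays. One GEO label field lists other dyes for the contemporary cows, but the protocol names Cy-3 and the files hold 1 colour.

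Here the processed intensities were put on the log2 scale and each array's 75th percentile was subtracted. Control spots were dropped, as were 66 probes flagged as outliers, and spots, then probes of a transcript, were averaged (61333 probes, 26323 transcripts). A gene is its transcript with the highest mean, unless 0 of the 10 nearest named genes lie among the 60 nearest to that symbol in RefSeq (assembly ARS-UCD2.0), which changed the choice for MYL9 alone. A transcript was tested if 1 of its probes was well above background throughout either group, using limma 3.58.1 in R 4.3.3, with 2 groups in a fit and Benjamini-Hochberg adjustment at 0.05. Single genes were tested by exact permutation in CP against YF. FCROS (fold change 1.5, f-values beyond 0.025 and 0.975, trim 0.25) ran on all transcripts. Scripts were tested on simulated data.

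The 43 genes, their classes and the lists were chosen with earlier results of these data known, the latter from general knowledge. Values in every animal are given for the genes with the largest and smallest SD over 11 animals in each role, and for CNN1. The genes outside the 43 are the 15 with the highest and the 5 with the lowest correlation, and the 5 contraction genes at either end of OF minus YF, of which 1 is not reported here. Alternatives were quantile normalization, normexp (offset 50), median centring, the brightest probe, the mean over transcripts, no filter, the slide as a block, animal 1111 included, 3 groups in 1 fit, FCROS, and each animal left out. Averaging only probes well above background, and taking the transcript with the highest mean wherever it lies, were added after the data were seen. The number of arrays limits the precision, and p-values rest on the spread between animals.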

Additional observations from a re-analysis of the deposited data

Results flagged for a closer look

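Within groups of 4 animals, 92 sets of levels (the 43 genes and the 3 class medians in OF and in YF) were searched for an animal far from the other 3, and 3 were found, where about 1 in 20 is found by chance. ACTA2, the alpha actin of smooth muscle, was at 5.08 in YF 1072, with the nearest YF at 3.83. FLNA was at -0.40 in YF 1127, with the nearest YF at 0.65. TLN1, the talin that links integrins to actin, was at 0.47 in YF 1127, with the nearest YF at 1.29. Neither OF 2258 nor OF 0234 met this criterion in any gene or class. The criterion looks for 1 animal apart from the other 3, so that animals high in the same gene hide each other. It therefore cannot show whether OF 2258 and OF 0234 lie apart from the other OF.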

How the results depend on the processing

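The class medians moved by less than 1 SD between animals under every alternative, which is a wide margin here, since leaving out animal 2258 alone took the widely expressed median of OF minus YF from 0.79 to 0.25. The median OF minus YF ran from 1.40 to 2.01 for the restricted, 0.92 to 1.46 for the enriched and 0.69 to 0.80 for the widely expressed genes over the alternatives, and from 1.05 to 2.68, 0.64 to 1.996 and 0.25 to 1.02 over the animals left out. The median CP minus YF ran from -0.04 to 0.39, -0.11 to 0.16 and -0.10 to 0.06 over the animals left out, and OF minus CP from 1.09 to 2.61, 0.59 to 1.87 and 0.27 to 1.10. FCROS called 1300 (OF and YF), 1113 (CP and YF) and 1422 (OF and CP) of all transcripts and 24, 1 and 12 of the 43 genes, where limma called 0. Limma called 1, 4 and 2 transcripts between CP and YF with quantile normalization, with animal 1111 included and with 3 groups in 1 fit, 2 between OF and CP with animal 1111 included, and 0 to 1 in either comparison with an animal left out. Genes without overlap numbered 2 in OF and YF with the mean over transcripts and 2 without the filter, 1 in CP and YF with the brightest probe, and 2 and 0 in OF and CP with quantile normalization and with animal 1111 included. With an animal left out they ran from 1 to 6 (OF and YF), 0 to 3 (CP and YF) and 1 to 18 (OF and CP). The share of all transcripts without overlap also rose whenever an animal was left out. Without OF 0233, OF above YF rose from 0.931% to 3.96% and OF above CP from 2.93% to 6.41%. Without YF 1072, CP above YF rose from 1.51% to 2.38%. Without CP 1068, OF above CP rose to 13.1%. For the other alternatives no such share is given. Why the counts of genes moved was not tested. Of the named genes, OF minus YF moved for SMPX (1.38) and JPH2 (0.66) with normexp and for PDLIM7 (0.92) with the mean over transcripts, whose OF minus CP became 0.80, and CP minus YF of JPH2 became -0.12 with the brightest probe. No paired analysis was possible because the animal numbers are not shared between groups. Signal over background limits ACTA1, SMPX, SYNM, RYR2, CASQ2 and JPH2, which were not well above background on every array. In CACNA1C, PPP1R12B and MYLK, 1 of the 2 probes was well above background on only 0, 2 and 2 of 12 arrays. In LDB3, TPM2 and MYOM1 the dimmer probe was so on 7, 10 and 11 of 12.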
